A study of Rattus norvegicus with 16 samples.

Results

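The Slc25a genes encode the mitochondrial carrier family, the membrane proteins that pass nucleotides, phosphate, keto acids, amino acids, acylcarnitines, cofactors and iron across the inner mitochondrial membrane. All genes were taken whose symbol starts with Slc25a and that had a probe set paired with exactly 1 symbol, and a gene with several such probe sets was represented by its brightest one on average. This gave 43 members among 17245 genes measured. Slc25a12 and Slc25a53 had no listed probe set and Slc25a51 and Slc25a52 shared theirs, so these genes are not analysed here.

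Each carrier is built from repeated membrane-spanning modules and most exchange a substrate on one side of the membrane for another on the other side. In heart muscle the ADP/ATP and phosphate carriers feed and empty ATP synthase, the acylcarnitine carrier brings in fatty acids, and the aspartate/glutamate and oxoglutarate carriers form the malate-aspartate shuttle that moves reducing power into mitochondria. Several substrates have a muscle-rich and a widely expressed isoform, of which the ADP/ATP carriers Slc25a4 and Slc25a5 are the textbook pair.

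Male Wistar rats of 160 to 180 g had been either sham-operated or given a band around the pulmonary artery, and RNA of the right ventricular wall was measured on 16 arrays, 1 per sample. There were 5 RVF+, 4 RVF and 7 CON arrays, where CON stands for the controls of the design text and the names RVF+ and RVF, kept as the labels spell them, are not explained further. The title concerns right ventricular failure under chronic pressure load, but neither the operation of a given sample nor the length of the load is stated. Whether each sample is a different rat is not stated either, so the p-values reflect spread among these samples that could be technical. Arrays are called here by group and title number, RVF+ 8 to 12, RVF 13 to 16 and CON 1 to 7, and values of RVF+ and RVF arrays are listed in that order, with the lowest, median and highest CON array after them. Levels are log2 intensities, on which a difference of 1 is a 2-fold change, and a level says nothing about the amount of one carrier against another, since probe sets differ in brightness.

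The array RVF+ 8 stood apart from the others. Over all genes its typical (root mean square) log2 distance to the CON average was 0.711. The other RVF+ arrays and all RVF arrays ranged from 0.326 to 0.448, and CON arrays from 0.157 to 0.212. The total counts of members called are therefore also given without it. Marker genes of several cell types differed between groups too. The mean level of 10 cardiomyocyte markers was 11.01 to 11.77 in RVF+, 11.69 to 11.82 in RVF and 11.97 to 12.04 in CON, with 6 of 10 called lower in RVF+ and 0 in RVF (6 and 4 without RVF+ 8). The mean of 9 macrophage markers was 7.62 to 8.94 in RVF+, 7.34 to 7.88 in RVF and 6.65 to 7.18 in CON, and 9 and 6 of the 9 were called higher in RVF+ and RVF (9 and 8 without RVF+ 8). Of 7 fibroblast markers 4 and 3 were called higher in RVF+ and RVF (4 and 4 without RVF+ 8). Among all genes at or above the median level, where these 3 marker lists lie, 21.3% fell and 18.9% rose in RVF+. In RVF 12.6% fell and 12.9% rose. Of 5 proliferation genes, 4 of them below that level, 5 and 3 were called higher (5 and 5 without RVF+ 8). Below that level 9.20% and 4.80% of genes rose. The proliferation mean was 7.58 on RVF+ 8 and 4.59 to 5.80 on the other RVF+ arrays. In bulk tissue, fewer cells of a type and less RNA per cell cannot be told apart, and the part of these shifts in the results below was not tested.

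Promoters are shown here for the 2 isoform pairs whose members were both called, in opposite directions, in RVF+ and in RVF against CON. They let a reader set the regulatory sequence of the muscle-rich ADP/ATP carrier beside that of its widely expressed counterpart, and Slc25a23 beside Slc25a24. Each window is the 250 bases before the RefSeq gene start in assembly GRCr8, 5′ to 3′ on the strand of the gene, with the GC box GGGCGG, the letters bound by SP1-type factors, in capitals on either strand. The windows lie at chr16:52805271-52805520 on the plus strand for Slc25a4, chrX:120897366-120897615 on the plus strand for Slc25a5, chr9:1985366-1985615 on the minus strand for Slc25a23 and chr2:199449175-199449424 on the plus strand for Slc25a24.
Slc25a4: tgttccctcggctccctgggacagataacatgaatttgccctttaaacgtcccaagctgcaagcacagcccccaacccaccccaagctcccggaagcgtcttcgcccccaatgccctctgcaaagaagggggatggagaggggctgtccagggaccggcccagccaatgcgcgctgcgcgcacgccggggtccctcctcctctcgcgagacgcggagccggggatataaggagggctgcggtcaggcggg
Slc25a5: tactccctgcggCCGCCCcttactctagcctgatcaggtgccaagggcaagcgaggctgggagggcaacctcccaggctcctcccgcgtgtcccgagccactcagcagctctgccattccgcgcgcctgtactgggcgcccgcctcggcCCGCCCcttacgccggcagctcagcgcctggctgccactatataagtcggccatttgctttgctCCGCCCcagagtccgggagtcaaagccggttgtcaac
Slc25a23: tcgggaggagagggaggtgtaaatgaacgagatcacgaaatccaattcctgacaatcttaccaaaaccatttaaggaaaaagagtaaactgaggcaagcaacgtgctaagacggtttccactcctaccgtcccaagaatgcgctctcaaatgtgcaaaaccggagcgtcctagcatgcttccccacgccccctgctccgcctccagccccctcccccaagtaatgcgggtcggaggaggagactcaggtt
Slc25a24: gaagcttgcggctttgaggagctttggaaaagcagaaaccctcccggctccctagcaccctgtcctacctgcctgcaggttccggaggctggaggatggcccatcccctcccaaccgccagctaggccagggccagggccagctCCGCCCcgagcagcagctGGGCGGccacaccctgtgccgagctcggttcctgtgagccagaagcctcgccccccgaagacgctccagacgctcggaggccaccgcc

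Slc25a5 held 3 GC boxes, with 232, 95 and 31 bases between the box and the gene start, and Slc25a24 held 2, with 100 and 82 bases between. Slc25a4 and Slc25a23 held 0 in these windows. Other pairs did not all differ in this way. Both members held a GC box in Slc25a39 with Slc25a40, Slc25a42 with Slc25a16 and Slc25a11 with Slc25a10. In the remaining pairs a box was found in Slc25a22, Slc25a28, Slc25a29 and Slc25a33, and their partners had none or no window. Promoters were found for 37 of the 43 members, matched by gene ID. A GC box occurred in 22 of these 37, or 59.5%, and in 30.5% of all 33469 promoter windows of the same length. Among members called in RVF+ against CON it was present in 5 of 5 higher ones and 9 of 19 lower ones with a window. Other motifs, searched on both strands, were found in fewer members. The E-box CACGTG was in 4 of 37 members, or 10.8%, against 5.59% of all windows. The YY1-type site AANATGGCG was in 1 of 37, or 2.70%, against 1.38%. The extended ERR half-site (T, any base, AAGGTCA), the NRF1-type site (GCGC and TGCGC with any base between) and the PPAR-type repeat (AGGTCA and AGGTCA with any base between) were in 0 of 37 members, against 1.04%, 3.75% and 0.0508% of all windows. These matches describe letters in a window and not binding.

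Against CON, more carriers were lower than higher in RVF+ hearts, and the median of the family was below 0. Of the 43 members 21 fell, 6 rose and 16 did not pass the test in RVF+ against CON. Over all genes, 13.6% fell and 14.1% rose. The median difference of the members was -0.22 on the log2 scale, against -0.012 over all genes, and the members ran from -0.93 to 0.79. All 5 RVF+ arrays lay below all 7 CON arrays for 14 members, which is 32.6% of them against 7.63% of all genes, and above all CON arrays for 0 members, against 6.96% of all genes. Without RVF+ 8, 18 members fell and 4 rose, with a median of -0.24.

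In RVF hearts against the same CON arrays 12 members fell, 3 rose and 28 did not pass. Over all genes 8.29% fell and 8.86% rose. The median of the members was -0.19, against -0.0087 over all genes, with a range of -0.77 to 0.54. For 15 members all 4 RVF arrays lay below all CON arrays, 34.9% against 9.00% of all genes, and for 2 members, Slc25a5 and Slc25a43, all lay above, 4.65% against 9.83%. Leaving out RVF+ 8, which enters this comparison only through the shared estimate of spread, gave 17 lower and 4 higher members. The members gained were Slc25a3, Slc25a11, Slc25a13, Slc25a18 and Slc25a46, lower, and Slc25a43, higher. Leaving out RVF 13 gave 8 lower members.

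Members at or above the median level of all genes carried most of these calls, and were also most of the 43 members. There were 28 of them, of which 16 fell and 4 rose in RVF+ against CON, that is 57.1% lower, against 21.3% lower and 18.9% higher among all genes at or above that level. In RVF against CON 9 of the 28 fell and 2 rose, 32.1% lower against 12.6% of such genes, with 12.9% of them higher. Of the 15 dimmer members 5 fell and 2 rose in RVF+, 33.3% lower against 5.96% of all genes below that level, of which 9.20% rose. In RVF 3 fell and 1 rose, 20.0% lower against 3.94%, with 4.80% higher.

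The 2 comparisons share the CON arrays, and their values for each member are given side by side below. Of the members, 11 fell in both, namely Slc25a4, Slc25a15, Slc25a20, Slc25a21, Slc25a23, Slc25a29, Slc25a34, Slc25a35, Slc25a36, Slc25a40 and Slc25a42, and 2 rose in both, Slc25a5 and Slc25a24. A further 10 were called lower and 4 higher against CON with RVF+ alone past the threshold, and 1 was called lower and 1 higher with RVF alone past it. These do not mark a difference between RVF+ and RVF, which was tested directly and was called for 0 members, as given at the end. The remaining 14 members were called in neither comparison, and 0 members had opposite calls. The share of all genes called in both comparisons was not counted. With shared CON arrays, these counts of agreement are therefore not read as a trait of the family.

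**Figure D1:**
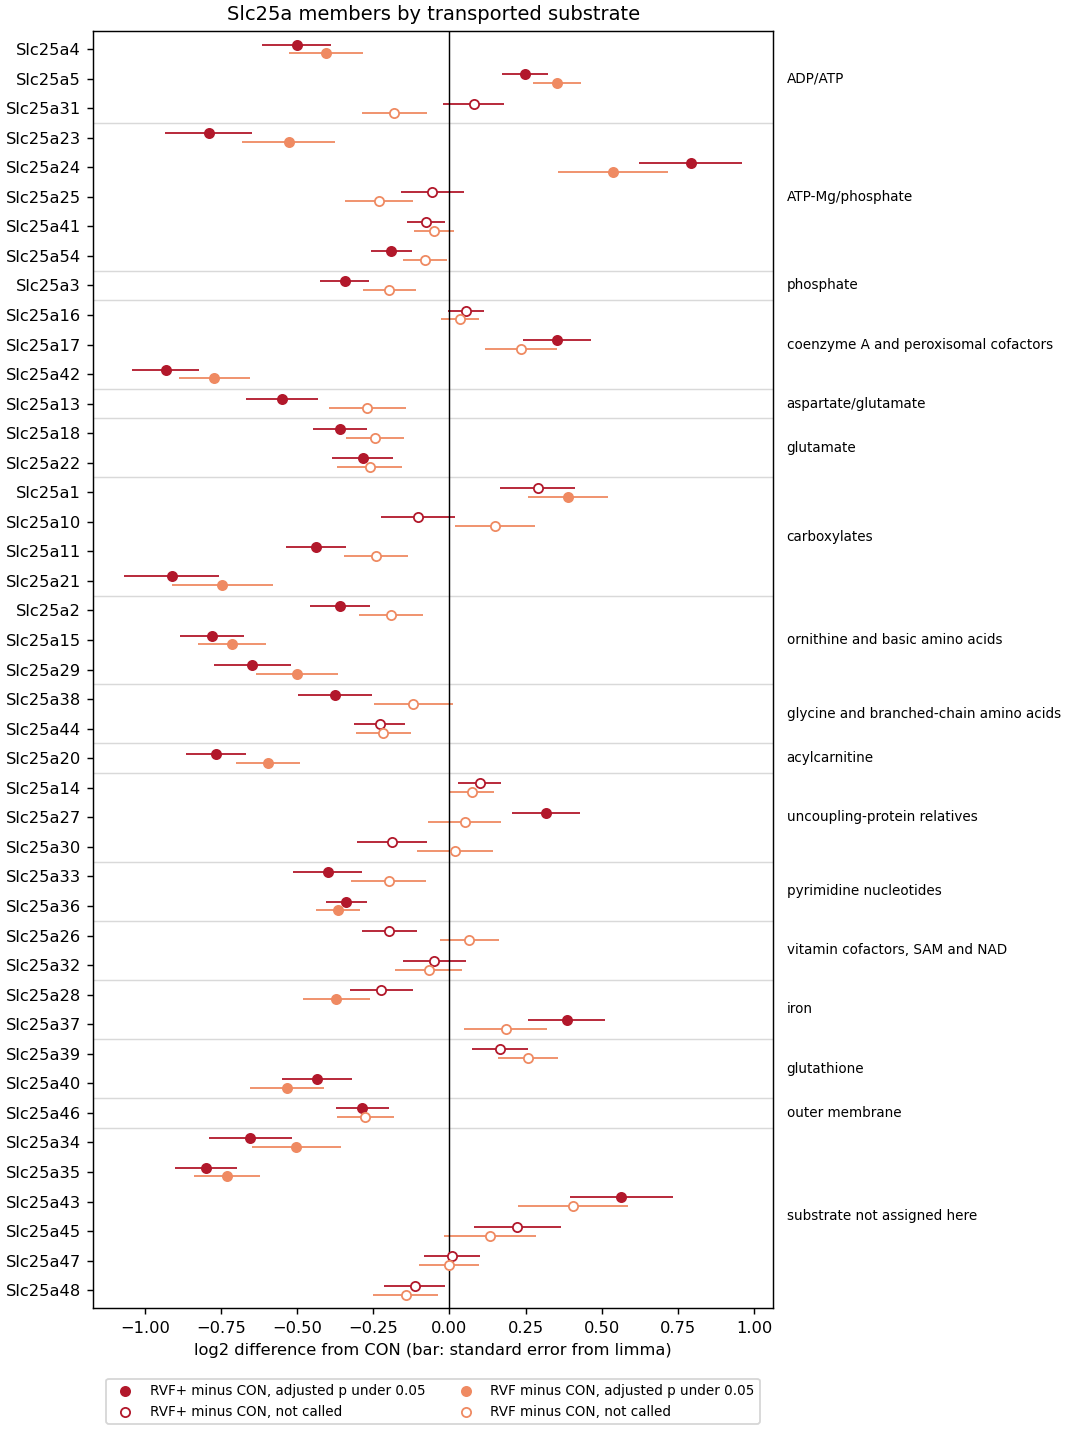
Log2 difference from CON for each of the 43 Slc25a members, grouped by substrate, with RVF+ and RVF as separate points, bars showing the standard error from the fit over 16 arrays and filled points marking an adjusted p under 0.05. Most points lie left of 0, with Slc25a42 lowest at -0.93 in RVF+ and Slc25a24 highest at 0.79.

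The ADP/ATP carriers exchange ATP made in the matrix for ADP from the cytosol. Slc25a4, the isoform of heart and skeletal muscle, had levels of 11.12, 11.78, 11.79, 11.98 and 11.97 in RVF+ and 11.78, 11.81, 11.86 and 11.85 in RVF, against 12.18, 12.23 and 12.32 in CON. Every RVF+ and RVF array was below every CON array, and RVF+ 8 was the lowest. Slc25a4 fell by 0.50 ± 0.11 (SE) in RVF+ against CON, a 1.42-fold decrease (limma, adjusted p = 0.00282). Without RVF+ 8 the difference was -0.35 and the call held. In RVF it fell by 0.40 ± 0.12, 1.32-fold (limma, adjusted p = 0.027), and this call ended when any 1 of the 4 RVF arrays was left out, with adjusted p up to 0.0766. Leaving out RVF+ 8, which enters the RVF comparison only through the shared spread, kept the RVF call (limma, adjusted p = 0.000122).

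Slc25a5, the widely expressed isoform, had levels of 11.44, 11.21, 11.30, 11.08 and 11.36 in RVF+ and 11.51, 11.39, 11.34 and 11.29 in RVF, against 10.88, 11.03 and 11.16 in CON. All RVF arrays and 4 of the 5 RVF+ arrays were above the highest CON array. The gene rose by 0.25 ± 0.07 in RVF+ against CON, 1.19-fold (limma, adjusted p = 0.0188), and by 0.35 ± 0.08 in RVF, 1.28-fold (limma, adjusted p = 0.0051). The RVF+ call ended without RVF+ 8 (0.21, adjusted p = 0.0521), with median centring (0.15, adjusted p = 0.0804) and with array weights (0.20, adjusted p = 0.0612). The RVF call was kept in all 25 alternatives. Slc25a4 and Slc25a5 are close in sequence and Slc25a5 has near-identical copies elsewhere in the genome, and the part of cross-hybridisation in these levels was not tested.

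The within-array difference Slc25a4 minus Slc25a5 follows how unequally the 2 isoforms moved. It was -0.32, 0.57, 0.49, 0.91 and 0.61 in RVF+ and 0.27, 0.42, 0.52 and 0.56 in RVF, and between 1.08 and 1.33 in CON. No RVF+ or RVF array reached the lowest CON array. The shift was -0.75 in RVF+ against CON, 1.68-fold (two-sided exact permutation test, p = 0.00126, the smallest that 792 splits allow, and 0.00909 after Benjamini-Hochberg adjustment over 27 pair tests). In RVF against CON it was -0.76, 1.69-fold (exact permutation test, p = 0.00303, the smallest that 330 splits allow, adjusted 0.00909). Without RVF+ 8 the RVF+ shift was -0.56 (adjusted 0.0102). Slc25a31, the germ-cell isoform, was dim at 3.59 to 3.99 in RVF+, 3.33 to 3.82 in RVF and 3.51 to 3.88 in CON, and it was called in neither comparison.

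**Figure D2:**
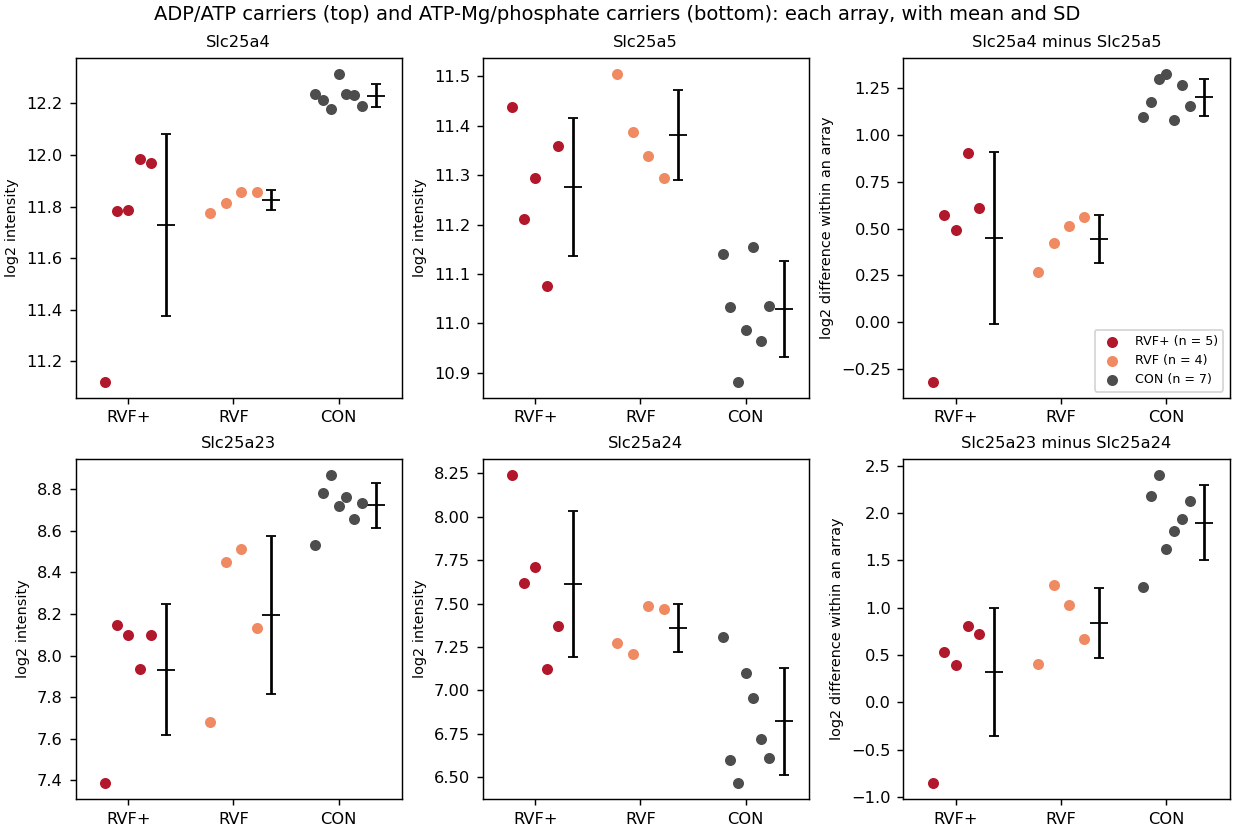
Levels of Slc25a4 and Slc25a5 on each array and their within-array difference (log2 intensity), in the upper panels, and of Slc25a23 and Slc25a24 in the lower ones, with RVF+, RVF and CON from left to right, points for arrays and bars for mean and SD. Slc25a4 minus Slc25a5 is at most 0.91 on RVF+ and RVF arrays and at least 1.08 on CON arrays.

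Phosphate for ATP synthesis enters through Slc25a3, which also carries copper. Its levels were 11.52, 12.01, 11.88, 11.99 and 12.06 in RVF+ and 12.02, 12.08, 12.08 and 11.98 in RVF, against 12.17, 12.25 and 12.29 in CON. All RVF+ and RVF arrays were below CON, by a small margin except in RVF+ 8. Slc25a3 fell by 0.34 ± 0.08 in RVF+, 1.27-fold (limma, adjusted p = 0.00379), and the difference was -0.20 ± 0.09 in RVF, which did not pass (adjusted p = 0.132). Without RVF+ 8 the RVF+ difference was -0.25 and still called.

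The ATP-Mg/phosphate carriers set the total of adenine nucleotides inside mitochondria, and several of them are regulated by calcium. Of 5 members measured, Slc25a23 fell and Slc25a24 rose in both comparisons. Slc25a23 had levels of 7.38, 8.15, 8.10, 7.93 and 8.10 in RVF+ and 7.68, 8.45, 8.51 and 8.13 in RVF, against 8.53, 8.74 and 8.87 in CON. No RVF+ or RVF array reached CON, though RVF 15 came close to it. The fall was 0.79 ± 0.14 in RVF+, 1.73-fold (limma, adjusted p = 0.000508), and 0.53 ± 0.15 in RVF, 1.44-fold (adjusted p = 0.0232). The RVF call ended without RVF 13 (-0.36, adjusted p = 0.116) or RVF 16 (-0.51, adjusted p = 0.063).

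Slc25a24 had levels of 8.24, 7.62, 7.71, 7.12 and 7.37 in RVF+ and 7.27, 7.21, 7.49 and 7.47 in RVF, against 6.46, 6.72 and 7.31 in CON. RVF+ 8 was the highest array, and 4 of 5 RVF+ and 2 of 4 RVF arrays exceeded all CON arrays. The rise was 0.79 ± 0.17 in RVF+, 1.73-fold (limma, adjusted p = 0.00196), and 0.54 ± 0.18 in RVF, 1.45-fold (adjusted p = 0.0488). The RVF+ call held in all alternatives, while the RVF call ended in 14 of 25, among them leaving out any 1 of the 4 RVF arrays, with adjusted p up to 0.127. A second probe set of each gene moved the same way, Slc25a23 by -1.01 and -0.71 and Slc25a24 by 0.65 and 0.45 in RVF+ and RVF, all called.

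The difference Slc25a23 minus Slc25a24 was -0.86, 0.53, 0.39, 0.81 and 0.73 in RVF+ and 0.41, 1.24, 1.03 and 0.66 in RVF, and between 1.22 and 2.41 in CON. Only RVF 14 reached the CON range. The shift was -1.58 in RVF+ (exact permutation test, adjusted 0.00909) and -1.07 in RVF (adjusted 0.0149), the largest of the 9 pairs in both. It was -1.29 in RVF+ without RVF+ 8. Among the other members, Slc25a54 was dim at 2.88 to 3.05 in RVF+, 2.93 to 3.17 in RVF and 3.03 to 3.31 in CON. It fell by 0.19 in RVF+ (limma, adjusted p = 0.0434), a call that ended in 12 of 24 alternatives. Slc25a25 and Slc25a41 were called in neither comparison.

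**Figure D3:**
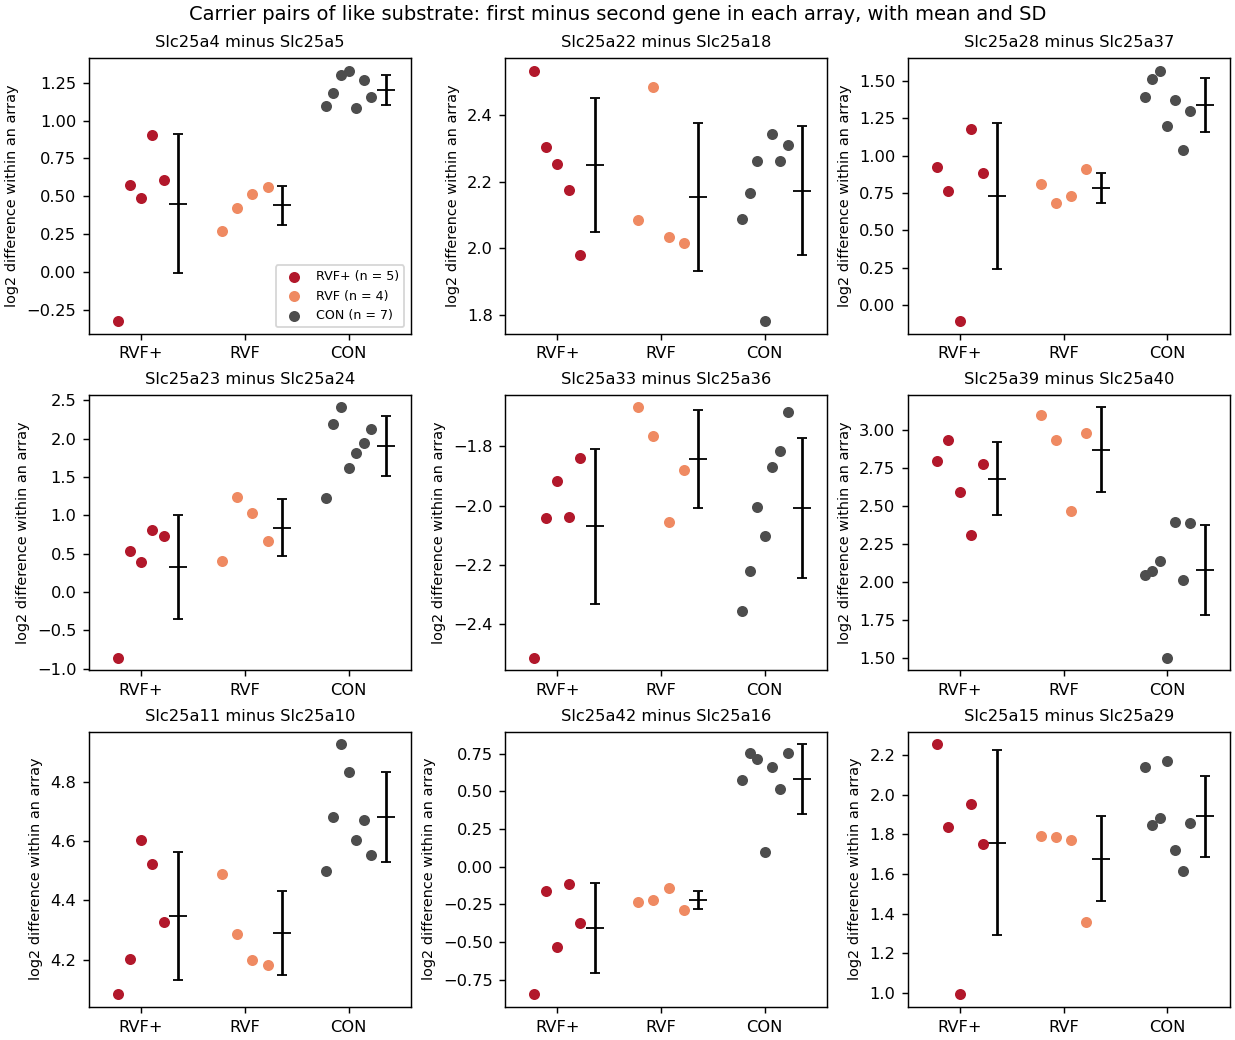
Within-array log2 difference between the 2 members of each of 9 carrier pairs, with a point per array, mean and SD beside it, and RVF+, RVF and CON from left to right. RVF+ and RVF lie wholly below CON for Slc25a4 minus Slc25a5 and Slc25a42 minus Slc25a16, and the largest shift is that of Slc25a23 minus Slc25a24 in RVF+ at -1.58.

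Slc25a20 exchanges acylcarnitines for carnitine and is the sole route of long-chain fatty acids into the matrix. Its levels were 8.42, 8.74, 8.57, 9.11 and 8.95 in RVF+ and 8.98, 8.86, 9.00 and 8.88 in RVF, against 9.36, 9.53 and 9.61 in CON. Both groups were wholly below CON. The gene fell by 0.77 ± 0.10 in RVF+, 1.70-fold (limma, adjusted p = 2.35e-05), and by 0.59 ± 0.10 in RVF, 1.51-fold (adjusted p = 0.000731), and both calls held in all alternatives. The carnitine enzymes Crat and Cpt2, listed with the shuttle enzymes, also fell, Crat by 0.92 and 0.72 and Cpt2 by 0.75 and 0.55 in RVF+ and RVF.

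The largest fall in the family was that of Slc25a42, which brings coenzyme A into mitochondria. Its levels were 6.55, 7.13, 6.91, 7.27 and 7.01 in RVF+ and 7.09, 7.11, 7.27 and 7.06 in RVF, against 7.59, 7.94 and 8.06 in CON. The groups did not overlap with CON, and RVF+ 8 was the lowest array. It fell by 0.93 ± 0.11 in RVF+, 1.91-fold (limma, adjusted p = 1.18e-05), and by 0.77 ± 0.12 in RVF, 1.71-fold (adjusted p = 0.000197). Slc25a16, a carrier tied to coenzyme A, ranged over 7.29 to 7.44 in RVF+, 7.32 to 7.42 in RVF and 7.28 to 7.49 in CON, and its differences of 0.06 and 0.03 did not pass. Slc25a42 minus Slc25a16 shifted by -0.99 in RVF+ and -0.81 in RVF (exact permutation test, adjusted 0.00909 each). Slc25a17, the peroxisomal member, rose by 0.35 ± 0.11 in RVF+ (limma, adjusted p = 0.0231) and had a difference of 0.24 in RVF that did not pass. The RVF+ call ended without RVF+ 8 (adjusted p = 0.069).

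In the malate-aspartate shuttle, Slc25a13 imports glutamate in exchange for aspartate and Slc25a11 exchanges malate for oxoglutarate. Slc25a13 had levels of 7.61, 8.16, 8.15, 8.27 and 8.63 in RVF+ and 8.40, 8.37, 8.50 and 8.51 in RVF, against 8.65, 8.68 and 8.85 in CON. It fell by 0.55 ± 0.12 in RVF+, 1.46-fold (limma, adjusted p = 0.00202), and its difference was -0.27 in RVF (adjusted p = 0.162). A dim second probe set at a mean level of 3.28 gave -0.06 in RVF+, and the mean of both probe sets gave -0.30, still called. Slc25a11 had levels of 10.64, 11.21, 10.89, 11.20 and 11.36 in RVF+ and 11.31, 11.17, 11.28 and 11.27 in RVF, against 11.42, 11.50 and 11.58 in CON. It fell by 0.44 ± 0.10 in RVF+, 1.35-fold (adjusted p = 0.00283), and its difference was -0.24 in RVF (adjusted p = 0.128). For both carriers every RVF+ and RVF array was below CON. Slc25a12, the aspartate/glutamate carrier known to predominate in heart, was not analysed here, so that isoform pair could not be formed.

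Of 12 measured genes of the shuttle enzymes, out of 15 listed, 8 fell and 1 rose in RVF+ (66.7% lower, against 21.3% of genes at or above the median level, where all 12 lie) and 6 fell and 0 rose in RVF (50% lower, against 12.6%). Without RVF+ 8, 8 fell in RVF+ and 9 in RVF. The list also holds the carnitine enzymes Cpt1a, Cpt1b, Cpt2 and Crat, and Acly and Slc16a1. These shares are therefore not those of the malate-aspartate shuttle alone. The aminotransferase Got1 fell by 0.68 and 0.45 in RVF+ and RVF, its mitochondrial counterpart Got2 by 0.63 and 0.47, and the glycerophosphate dehydrogenase Gpd2 by 0.69 and 0.49. The malate dehydrogenases Mdh1 and Mdh2 fell by 0.41 and 0.36 in RVF+. Their RVF differences of -0.26 and -0.18 did not pass.

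Among the other carboxylate carriers Slc25a21, the oxoadipate carrier, had levels of 4.33, 4.67, 5.29, 4.70 and 4.80 in RVF+ and 5.14, 5.01, 5.18 and 4.36 in RVF, against 5.39, 5.67 and 5.97 in CON. It was below CON on every RVF+ and RVF array and fell by 0.91 ± 0.16 in RVF+, 1.88-fold (limma, adjusted p = 0.00033), and by 0.74 ± 0.17 in RVF, 1.68-fold (adjusted p = 0.00478). The citrate carrier Slc25a1 rose in RVF by 0.39 ± 0.13 (adjusted p = 0.0497), a call at the threshold that ended in 17 of 24 alternatives, and its difference in RVF+ was 0.29 (adjusted p = 0.0902). The dicarboxylate carrier Slc25a10 was called in neither, at -0.10 and 0.15. Slc25a11 minus Slc25a10 shifted by -0.33 in RVF+ and -0.39 in RVF (exact permutation test, adjusted 0.0227 and 0.00909). The RVF+ shift lost its call without RVF+ 8 (adjusted 0.075), and both lost it with quantile normalization (adjusted 0.162 and 0.0521).

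All 3 carriers of ornithine and basic amino acids fell in RVF+. Slc25a15, the ornithine carrier of the urea cycle, had levels of 6.16, 6.12, 5.60, 5.96 and 6.35 in RVF+ and 6.03, 6.11, 6.26 and 6.01 in RVF, against 6.63, 6.84 and 6.95 in CON. It fell by 0.78 ± 0.10 in RVF+, 1.72-fold (limma, adjusted p = 3.73e-05), and by 0.71 ± 0.11 in RVF, 1.64-fold (adjusted p = 0.000253), with no overlap with CON. Slc25a29, which carries basic amino acids, was dim and fell by 0.65 ± 0.13 and 0.50 ± 0.13 (adjusted p = 0.000892 and 0.0153), also with no overlap. Its RVF call ended without RVF 13 (-0.44, adjusted p = 0.0651) or RVF 14 (-0.47, adjusted p = 0.0523). Slc25a2, the second ornithine carrier, fell by 0.36 ± 0.10 in RVF+ (adjusted p = 0.0106) and had a difference of -0.19 in RVF that did not pass. The pair Slc25a15 minus Slc25a29 shifted by -0.13 and -0.21 and was not called.

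Both glutamate carriers, which bring in glutamate for oxidation, fell in RVF+. Slc25a22 fell by 0.28 ± 0.10 and Slc25a18 by 0.36 ± 0.09 in RVF+ (limma, adjusted p = 0.0428 and 0.00544), and in RVF their differences of -0.26 and -0.24 did not pass. The Slc25a22 call ended in 11 of 25 alternatives. Their pair difference shifted by 0.08 in RVF+ and -0.02 in RVF and was not called. Slc25a38, the glycine carrier needed for heme synthesis, fell by 0.37 ± 0.12 in RVF+ (adjusted p = 0.0278), a call that ended in 5 of 25 alternatives, including without RVF+ 8 (adjusted p = 0.082). The branched-chain amino acid carrier Slc25a44 was called in neither, at -0.23 and -0.22.

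Of the pyrimidine nucleotide carriers, which supply mitochondrial DNA and RNA synthesis, Slc25a36 fell by 0.34 ± 0.07 in RVF+ and by 0.37 ± 0.07 in RVF (limma, adjusted p = 0.001 and 0.00157). Its levels were 8.22, 8.17, 8.11, 8.29 and 8.30 in RVF+ and 8.26, 8.14, 8.23 and 8.14 in RVF, against 8.44, 8.59 and 8.68 in CON, so that no RVF+ or RVF array overlapped CON and RVF+ 8 lay among the others. A probe set shared by Slc25a36 and its near copy Slc25a36l1 read 8.21 to 8.32 in RVF+, 8.08 to 8.42 in RVF and 8.39 to 8.82 in CON. Slc25a33 fell by 0.40 ± 0.11 in RVF+ (adjusted p = 0.0142) and had a difference of -0.20 in RVF that did not pass. Slc25a33 minus Slc25a36 was not called.

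Iron enters mitochondria through the mitoferrins, Slc25a37 being the form of red cell precursors and Slc25a28 the widely expressed one. Slc25a37 had levels of 6.36, 6.32, 7.03, 6.16 and 6.13 in RVF+ and 6.36, 6.00, 6.30 and 6.13 in RVF, against 5.89, 5.96 and 6.18 in CON. RVF+ 10 stood above all other arrays. The gene rose by 0.38 ± 0.13 in RVF+ (limma, adjusted p = 0.0303), and its difference was 0.18 in RVF (adjusted p = 0.398). Leaving out RVF+ 10 gave 0.23 (adjusted p = 0.0677), and the call ended in 7 of 25 alternatives. The mean level of 6 red cell markers was 6.61, 7.49, 7.99, 7.24 and 6.25 in RVF+, 7.01, 6.02, 6.13 and 5.74 in RVF and 5.63 to 6.39 in CON, so RVF+ 10 was highest there too. Of these markers 4 were called higher in RVF+ and 0 in RVF, against 14.1% and 8.86% of all genes. The part of these markers in the Slc25a37 level was not tested.

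Slc25a28 had levels of 7.28, 7.09, 6.92, 7.33 and 7.02 in RVF+ and 7.17, 6.69, 7.03 and 7.04 in RVF, against 7.00, 7.40 and 7.52 in CON. The groups overlapped, and RVF 14 was the lowest array. It fell by 0.37 ± 0.11 in RVF (limma, adjusted p = 0.0278) and its difference in RVF+ was -0.22 (adjusted p = 0.121). The RVF call ended without RVF 14 (-0.27, adjusted p = 0.125), RVF 15, RVF 16 or CON 3. Slc25a28 minus Slc25a37 was 0.93, 0.77, -0.10, 1.18 and 0.89 in RVF+ and 0.81, 0.68, 0.73 and 0.91 in RVF, and between 1.04 and 1.57 in CON. All RVF arrays lay below CON, while RVF+ 11 lay inside its range. The difference shifted by -0.61 in RVF+ and -0.56 in RVF (exact permutation test, adjusted 0.00909 each), and both calls held in all 19 alternatives run.

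**Figure D4:**
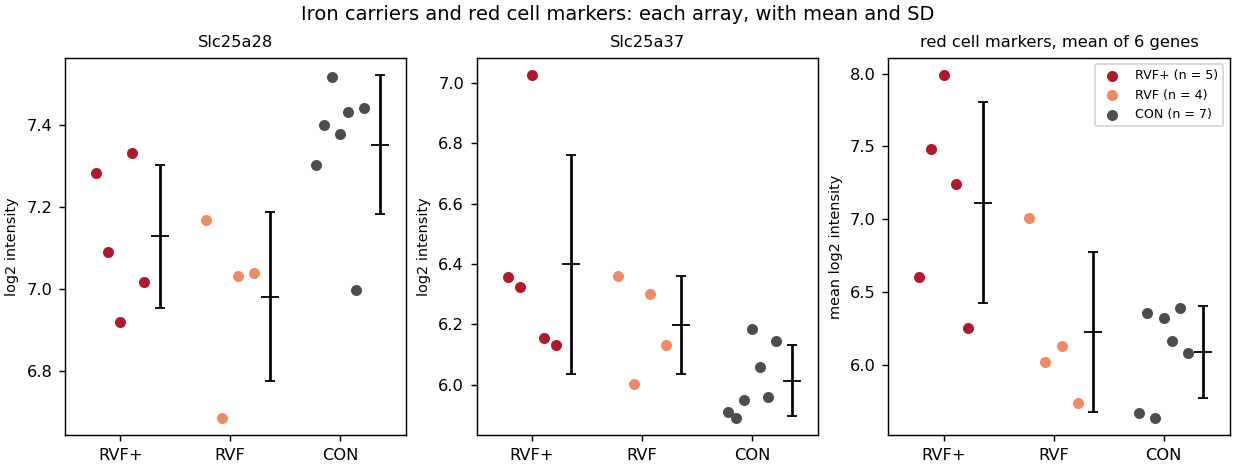
Levels of Slc25a28 and Slc25a37 (log2 intensity) and the mean level of 6 red cell markers on each array, with RVF+, RVF and CON from left to right and bars for mean and SD. RVF+ 10 is highest for Slc25a37, at 7.03, and for the red cell markers, at 7.99.

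The glutathione carriers Slc25a39 and Slc25a40, which bring the antioxidant tripeptide into mitochondria, diverged. Slc25a40 had levels of 5.89, 5.78, 5.95, 6.13 and 5.94 in RVF+ and 5.93, 5.77, 6.13 and 5.54 in RVF, against 6.08, 6.41 and 6.71 in CON. It fell by 0.43 ± 0.11 in RVF+ and by 0.53 ± 0.12 in RVF (limma, adjusted p = 0.00849 and 0.00576), with 1 array of each group inside the CON range. Slc25a39 had differences of 0.17 and 0.26 (adjusted p = 0.196 and 0.0813), and its second probe set gave 0.04 and 0.20, none called. Slc25a39 minus Slc25a40 shifted by 0.60 in RVF+ and 0.79 in RVF (exact permutation test, adjusted 0.0136 and 0.00909), and these calls held in all 19 alternatives.

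Some members have no substrate assigned here. Slc25a35 had levels of 4.87, 5.03, 5.04, 5.23 and 5.07 in RVF+ and 4.97, 4.98, 5.02 and 5.49 in RVF, against 5.64, 5.80 and 6.08 in CON, with no overlap. It fell by 0.80 ± 0.10 and 0.73 ± 0.11 (limma, adjusted p = 2.16e-05 and 0.000154). Slc25a34 fell by 0.65 ± 0.14 and 0.50 ± 0.15 (adjusted p = 0.00164 and 0.0237), again without overlap, and its RVF call ended without RVF 13 (-0.52, adjusted p = 0.0504) or RVF 14 (-0.44, adjusted p = 0.0861). Slc25a43 rose by 0.56 ± 0.17 in RVF+ (adjusted p = 0.0182), where RVF+ 8 reached 5.86, against 4.43 to 4.91 on the other RVF+ arrays, 4.65 to 4.90 in RVF and 4.14 to 4.53 in CON. Its difference in RVF was 0.40 (adjusted p = 0.141). Without RVF+ 8 the RVF+ difference was 0.34 and the RVF difference of 0.40 passed (adjusted p = 0.0153 and 0.00465). Slc25a45, Slc25a47 and Slc25a48 were called in neither.

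The outer-membrane member Slc25a46, which takes part in mitochondrial dynamics, fell by 0.29 ± 0.09 in RVF+ (limma, adjusted p = 0.0203) and had a difference of -0.28 in RVF that narrowly did not pass (adjusted p = 0.0502). Its RVF+ call ended without RVF+ 9 (adjusted p = 0.0527) or RVF+ 10 (adjusted p = 0.0552). Of the uncoupling-protein relatives Slc25a27 rose by 0.32 ± 0.11 in RVF+ (adjusted p = 0.0429), a call that ended in 14 of 24 alternatives, while Slc25a14 and Slc25a30 were called in neither. The cofactor carriers Slc25a26, for S-adenosylmethionine, and Slc25a32, for folate and flavin, were called in neither.

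**Figure D5:**
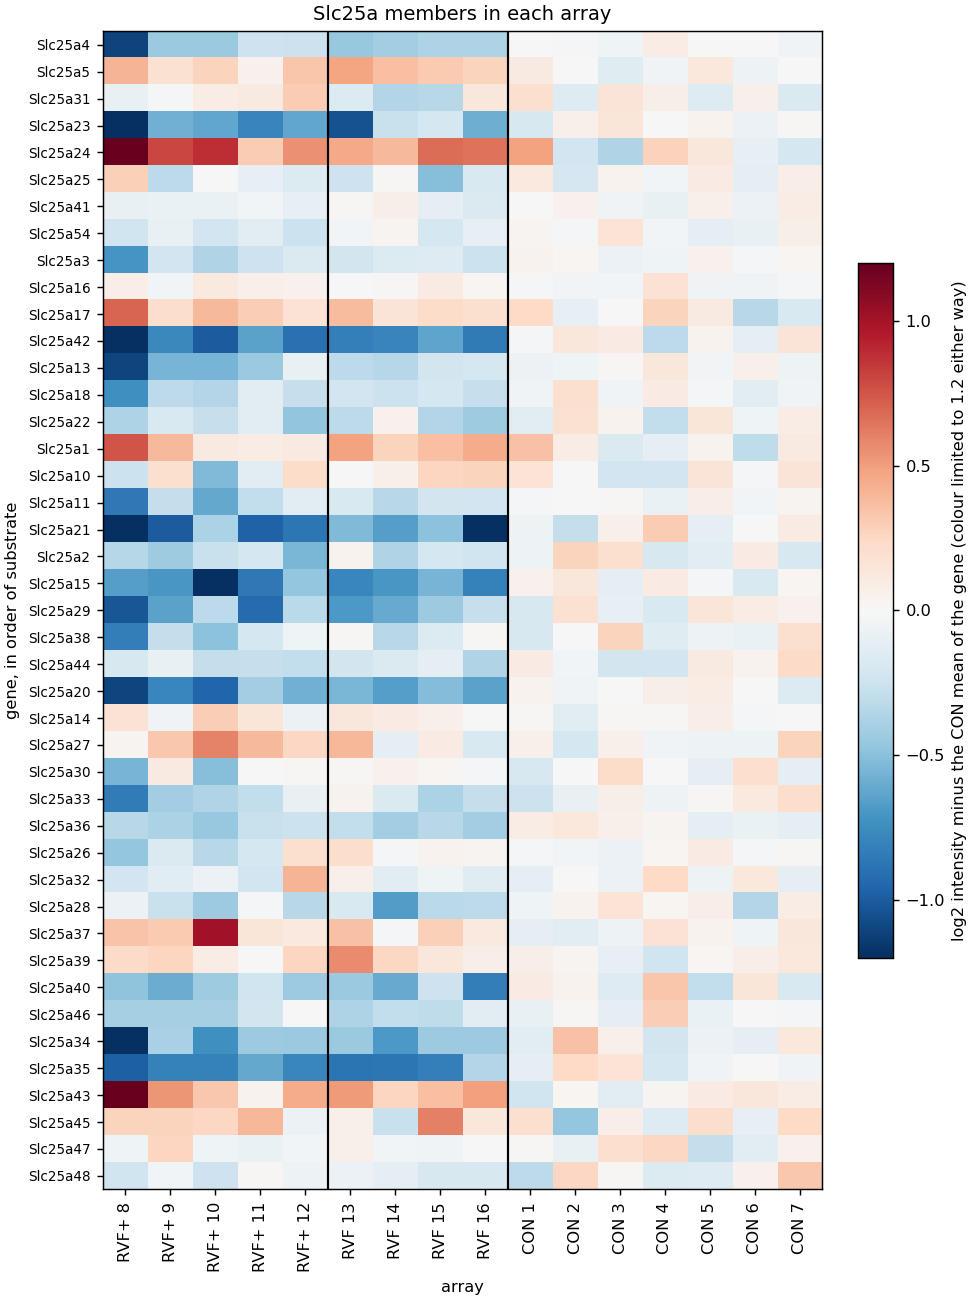
Level of each Slc25a member on each array as the log2 difference from the CON mean of that gene (blue lower, red higher, with the deepest colour also standing for larger differences), with RVF+ 8 to 12, RVF 13 to 16 and CON 1 to 7 from left to right. The lower carriers are low across the RVF+ and RVF columns, and Slc25a4 is low at RVF+ 8.

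Between RVF+ and RVF no member was called, and the share of all genes called was 0% (0 of 17245 by limma, with 1242 at an unadjusted p under 0.05). For 0 members did the arrays of one group lie wholly below or above the other, against 1.15% and 0.586% of all genes. The differences ran from -0.28 to 0.27, with a median of -0.07. At an unadjusted p under 0.05 there were 2 members. Slc25a26 differed by -0.26, with a 95% interval of -0.48 to -0.05, and Slc25a31 by 0.26, with an interval of 0.02 to 0.50. Their adjusted p was 0.607 and 0.647. Including these, the 3 negative differences with the smallest p were those of Slc25a26, Slc25a13 (-0.28) and Slc25a38 (-0.26), and the 3 positive ones those of Slc25a31, Slc25a27 (0.27) and Slc25a25 (0.18), none called. For Slc25a4 the interval of the difference was -0.37 to 0.17 and for Slc25a5 -0.29 to 0.07, and Slc25a4 minus Slc25a5 shifted by 0.0086 (exact permutation test, adjusted 0.984). For 0 of the 9 pairs was the shift between RVF+ and RVF called. A missed threshold with 5 and 4 arrays does not show that the groups are alike.

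Other genes of mitochondrial transport were read beside the carriers. A list of 31 mitochondrial channels and transporters without an Slc25a symbol included the uncoupling proteins and the Mtch genes, which are relatives of the carriers under other names. Of the 25 measured, 12 fell and 3 rose in RVF+ and 5 fell and 2 rose in RVF, and their medians were -0.24 and -0.16. The shares lower were 48.0% and 20.0%, against 13.6% and 8.29% of all genes. All but 3 of the 25 lie at or above the median level, where 21.3% and 12.6% of genes fell. Without RVF+ 8 the RVF count was 10 lower and 3 higher. The ABC transporter Abcb8 fell by 0.58 and 0.31, the sideroflexin Sfxn5 by 0.91 and 0.57, and the ABC transporter Abcb10 by 0.48 in RVF+. The sideroflexin Sfxn3 rose by 0.53 and 0.52, and the sodium-calcium exchanger Slc8b1 by 0.52 and 0.66. Ucp3, a muscle uncoupling protein, fell by 0.89 and 0.90, with an SD of 0.51 among CON arrays. Only 2 RVF+ and 2 RVF arrays lay below all CON arrays for it. Of 23 measured genes of the protein import machinery, out of 27, all at or above the median level, 8 fell and 0 rose in RVF+, 34.8% lower against 21.3% of genes at that level. In RVF 3 fell and 0 rose, 13.0% lower against 12.6%, a share near the background. Without RVF+ 8, 6 and 5 import genes fell in RVF+ and RVF and 1 rose in each. In RVF+ the import pore Tomm40 fell by 0.34, the matrix chaperone Hspa9 by 0.53, Timm21 of the inner-membrane translocase by 0.48 and the Hspa9 cofactor Grpel1 by 0.42. In RVF Timm9 fell by 0.36, Samm50 of the outer membrane by 0.43 and Hspa9 by 0.31, and the difference of Grpel1, -0.31, did not pass.

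The RNA of citrate synthase, Cs, fell by 0.54 ± 0.09 in RVF+ and by 0.38 ± 0.10 in RVF (limma, adjusted p = 0.000284 and 0.0113). The activity of this enzyme is a common measure of mitochondrial content, but these arrays measure RNA only. The mitochondrial transcription factor Tfam fell by 0.33 and 0.29. Regulators of mitochondrial and fatty acid genes, Ppargc1a, Esrra and Ppara, fell in RVF+ by 0.81, 0.41 and 0.90, and their RVF differences of -0.63, -0.24 and -0.50 did not pass. Of these 5 genes, all at or above the median level, 5 were called lower in RVF+ (100%) and 2 in RVF (40%). Among all genes at that level 21.3% and 12.6% fell. Without RVF+ 8 the counts were 5 and 4. The part of these changes in the carrier levels was not tested.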

How the data were processed

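Total RNA, 500 ng per sample, was labelled and hybridised to Affymetrix arrays per the labels' protocols. Per the submitters' processing notes RMA, which corrects background, normalizes by quantiles and summarises probes, was used. The authors deposited the resulting intensity of every probe set. The sources used here do not give its software version, array build or genome build. The deposited intensity values were linear, from 2.20 to 10294, with array medians of 27.1 to 29.3, and were converted to log2. RMA compresses differences of dim probe sets.

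Of 29214 probe sets, 18644 had exactly 1 symbol, 962 had several and 9608 were not listed, and 18460 matched the RefSeq gene table. Of the members, 4 had several probe sets. Precision is limited by the number of arrays.

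Group means were fitted to all 16 arrays with limma 3.58.1 in R 4.3.3 (13 residual and 4.45 prior degrees of freedom). P-values were two-sided and adjusted by Benjamini-Hochberg over 17245 genes, with a threshold of 0.05. Intervals are those of the fit. Within-array differences of 9 carrier pairs were compared by two-sided exact permutation of samples, adjusted over 27 tests, and the pair with Slc25a12 was not run. Members, pairs and gene lists were chosen with earlier results of these data known. The rule for named genes took all members of the ADP/ATP, phosphate, aspartate/glutamate, oxoglutarate, acylcarnitine and iron groups and of the pairs. It also took the 10 largest called changes each way and the 4 genes with the lowest p in each other list per comparison with CON. Last, it took 5 regulators or mitochondrial genes, and the remaining members are accounted for beside them. Mdh1, Mdh2 and Ucp3 were named outside this rule.

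Alternatives were quantile normalization, median centring, a filter on dim genes, the mean of probe sets, all probe sets, the 2 groups alone, trend and robust moderation, array weights and each array left out. Tested on simulated data with 17245 genes, the fit recovered 79.1% of 1.5-fold changes in RVF+ against CON, 77.6% in RVF against CON and 65.7% in RVF+ against RVF. The simulated noise was independent, with the same spread in each group and no outlying array. The median sizes of member differences were 0.34, 0.24 and 0.15 on the log2 scale. These are below 1.5-fold, so the recovery shares do not apply to changes of that size. Red cell, macrophage, fibroblast, cardiomyocyte and proliferation markers are given with the results. Of 7 adipocyte markers 1 and 0 were called lower in RVF+ and RVF, and of 3 atrial markers 0 and 2 were lower and 1 and 1 higher. Over all genes 13.6% and 8.29% fell and 14.1% and 8.86% rose.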

Additional observations from a re-analysis of the deposited data

Results flagged for a closer look

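Single arrays were checked within each group for each member, and 11 of 129 such groups had an array far from its neighbours, while chance gives about 1 in 20. Among RVF+ arrays, RVF+ 8 was low for Slc25a4 at 11.12, with the next array at 11.78, and low for Slc25a23 at 7.38, with the next at 7.93. RVF+ 9 was high for Slc25a47 at 4.01, RVF+ 10 high for Slc25a37 at 7.03, with the next at 6.36, and RVF+ 12 high for Slc25a32 at 7.95. Among RVF arrays, RVF 14 was low for Slc25a34 at 7.24 and RVF 16 high for Slc25a35 at 5.49. Among CON arrays, CON 4 was high for Slc25a4 at 12.32, for Slc25a16 at 7.49 and for Slc25a46 at 8.69, and CON 6 was low for Slc25a28 at 7.00.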

How the results depend on the processing

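Of the 27 member calls in RVF+ against CON, 19 were kept in every alternative, 17 lower and the higher Slc25a24 and Slc25a43, and of the 15 in RVF against CON 8 were kept, 7 lower and the higher Slc25a5. No called member changed sign. Median centring moved the median of all genes to -0.11 in RVF+ and -0.092 in RVF, which split the calls into 1757 higher and 3577 lower genes (2423 and 2348 as deposited) and 1084 and 2108 (1528 and 1429), and left 2 members higher in RVF+ and 1 in RVF, with member medians of -0.32 and -0.28. Quantile normalization left 1 member higher in RVF. In RVF against CON, fitting the 2 groups alone called 4466 genes and array weights called 4688 (2957 in the fit of all groups), and array weights gave 20 lower members. With each array left out, RVF+ against CON gave 4288 to 4993 genes, 4 to 6 members higher and 17 to 21 lower. RVF against CON gave 2063 genes (without RVF 13) to 4247 (without RVF+ 8), 1 to 4 members higher and 8 to 17 lower. RVF+ against RVF gave 0 to 3 genes and 0 to 0 members. The shift of Slc25a4 minus Slc25a5 was -0.86 to -0.56 in RVF+ and -0.80 to -0.70 in RVF. Its uncalled difference between RVF+ and RVF, 0.0086, was 0.20 without RVF+ 8 and changed sign with quantile normalization (-0.016) and without RVF+ 9 (-0.021), RVF+ 10 (-0.0014), RVF+ 11 (-0.11), RVF+ 12 (-0.031) or RVF 13 (-0.049). The causes were not tested. The Slc25a12 pair was not run. No paired analysis was possible because the title numbers run on across the groups and none is shared. Scanner values and detection calls were not used here, so signal over background was not known.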

Other observations

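The 3 probe sets shared by Slc25a51 and Slc25a52, which carry NAD, could not be given to 1 gene and entered no comparison. The brightest of them read 8.02, 8.04, 7.78, 7.93 and 8.18 in RVF+, 8.26, 8.00, 8.04 and 7.92 in RVF, and 7.67 to 7.96 in CON.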
